A study of Zea mays with 24 samples.

Results

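The response of Fergus primary roots to low temperature was measured on 3 of the 24 two-colour arrays of the series, those that carried control and cold-treated root RNA of this variety together. Fergus is a maize (Zea mays) variety that the study placed among its less chilling tolerant ones, as it did Codisco, with Picker and PR39B29 as the more tolerant pair. The arrays were chosen by their titles, which name cultivar 1 in both channels, and are replicates 1, 2 and 3 of independently grown and harvested seedlings. Per the labels, all seedlings grew in the dark. Control chambers alternated 16 h of 18 °C with 6 h of 12 °C, the cold chambers 16 h of 12 °C with 8 h of 6 °C, and roots were taken 8 days post-germination. The methods of the study instead give 8 h for the cool period of the control and day 1 post-germination for the array RNA, and which applies was not settled here. The other 21 arrays are 9 of the same kind for the 3 other varieties and 12 linking arrays that pair cold RNA of one variety with control RNA of the next.

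Maize is a plant of warm climates, and chilling of a young root slows water uptake, membrane transport and growth. Plants that meet cold, drought or salt share part of their answer, because each can leave cells short of water: abscisic acid (ABA) rises, and protective proteins such as the ASR family (ABA, stress and ripening) accumulate. Peroxidases use hydrogen peroxide to oxidise phenolic compounds and to cross-link cell walls. Pathogenesis-related proteins and chitinases, which break down chitin of fungal walls, belong to the defence against microbes.

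Each value is a log2 ratio (M) of the 2 channels of a slide, so it holds a difference and no level of expression, and the labelled tissue could not be checked against marker levels. All ratios are given here as cold over control, with the sign of the deposited direct arrays changed because their titles name the control first. This direction is likely but not settled by the labels. The dye labels disagree with it: they give control Cy3 and cold Cy5 on the Fergus arrays, and a file header defines M as Cy5 over Cy3, which read literally would turn the sign of every direct array. Genes called higher and lower would then change places, with the total of 191 below unchanged, and the linking arrays would keep their signs. Read that way, both kinds of array would be cold over control as deposited, yet as deposited the Fergus arrays and the 6 linking arrays that carry Fergus RNA correlated negatively over the genes tested in 15 of 18 pairs (Pearson's r from -0.78 to 0.11, 11 pairs below -0.3). The 3 pairs that did not were those with replicate 2 of Codisco cold over Fergus control. Title order gives both kinds of array one direction, and it is the reading used here. The labels show no dye swap among the direct arrays, so dye and cold treatment cannot be told apart on them.

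The slide held 43393 maize probes as long oligonucleotides. Each probe is counted here as a gene, though several can belong to the same gene. Among the calls below, MZ00001082, MZ00004347 and MZ00056611 share the cluster name TC254030. A ratio was present for 21898 genes on replicate 1 (50.5%), 27813 on replicate 2 (64.1%) and 32392 on replicate 3 (74.6%), and for 19096 genes on all 3 arrays. The replicates differed in how they ranked the 4706 genes tested: Spearman's rho was 0.66 between replicates 2 and 3, 0.43 between 1 and 3 and 0.31 between 1 and 2. Each Fergus array ranked genes more like an array of another variety than like either of its own partners. For replicate 1 this was replicate 1 of Codisco (rho = 0.54 over 3649 genes). For replicate 2 it was replicate 3 of Picker (0.79 over 3652 genes), and for replicate 3 it was replicate 2 of Picker (0.77 over 4313 genes).

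Cold and control roots differed in 191 of the 4706 genes tested in Fergus (4.06%; limma, Benjamini-Hochberg adjusted p under 0.05). Of these, 92 were higher (1.95%) and 99 lower (2.1%), and all 191 had the same sign on all 3 arrays. Among the risers were genes for a metacaspase, the root protein RCc3, an ASR protein, r40g3 proteins, an aspartic proteinase and a peroxidase, and among the fallers those for pathogenesis-related protein-1, a chitinase and the plastid gene psbA. The called changes were large: the smallest mean was 2.33 in size on the log2 scale, the median 3.12 among genes that rose and -3.03 among genes that fell, while the median of all genes tested was 0.06. Of the 4706 genes, 1375 lay above 0 on all 3 arrays (29.2%), 1050 below 0 (22.3%) and 2281 were of mixed sign. The unadjusted p was under 0.05 for 1354 genes (28.8%).

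The calls depended most on replicates 2 and 3. Without replicate 2 or without replicate 3 no gene passed the threshold (803 to 811 genes at an unadjusted p under 0.05), whereas without replicate 1 there were 159 calls, 92 of them among the 191. No gene passed either when genes missing on 1 array were let into the test, with a smallest adjusted p of 0.0624, or when p-values were adjusted over the 4 varieties together, with 0.0763.

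**Figure D1:**
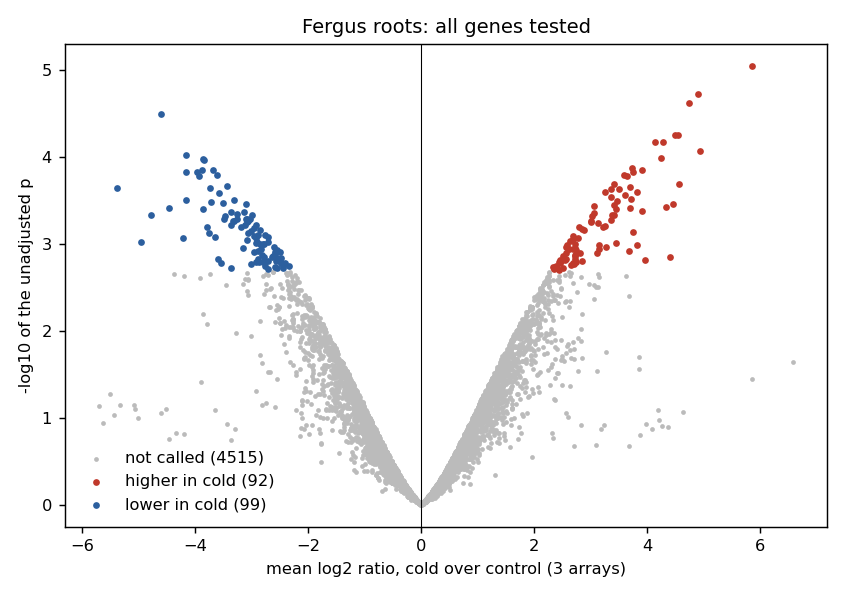
Each point is 1 of the 4706 genes tested in Fergus, with the mean log2 ratio of cold over control over 3 arrays on the x axis and -log10 of the unadjusted p on the y axis. The 92 genes called higher and the 99 called lower all lie at least 2.33 to either side of 0, and many genes with means as far from 0 were not called.

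For 4 of the called genes the study designed quantitative PCR primers, and the pairs are shown because the slide files give these genes only as cluster or sequence-read names, so that the primers are the sequence by which each transcript can be found. Each is written 5′ to 3′ in lower case with no base marked.
MZ00004486 (pathogenesis-related protein-1) forward: gagcaacgtgattggacaga
MZ00004486 reverse: gcatatgcggggagaacata
MZ00026737 (peroxidase) forward: agaaggccatggtcaagatg
MZ00026737 reverse: gcttgcaggtcatgaacaaa
MZ00037140 (glucose starvation-induced protein) forward: aagtaaggccacgcgtttta
MZ00037140 reverse: cctggactacgagacggtgt
MZ00041708 (unknown protein) forward: ttgctgctcttcaccttcct
MZ00041708 reverse: acaacaatggcttccctgaa

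The called gene with the highest mean was MZ00039847, known here only by the accession CF033436. Its log2 ratio was 6.22, 6.19 and 5.16 on replicates 1 to 3, a mean of 5.86 ± 0.60 (SD, n = 3) or 58.0-fold (SE 0.51, adjusted p = 0.0327). It was high on every Fergus array, and elsewhere it stood at -0.77 and 0.05 on the 2 Codisco arrays with a value, at 10.14 and 3.26 on 2 Picker arrays and at 2.35 on 1 PR39B29 array.

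The 2 genes that followed, MZ00032354 and MZ00018594, have no product in the sources used here. MZ00032354 stood at 4.01, 6.33 and 4.49 (mean 4.94 ± 1.22, adjusted p = 0.0327). MZ00018594 stood at 4.71, 4.95 and 5.04 (mean 4.90 ± 0.17, adjusted p = 0.0327), among the closest replicates of the extreme genes. In Codisco, MZ00018594 ranged from 1.98 to 6.66 and in PR39B29 from -0.82 to 2.15, so that its values in Fergus lay inside the first range and above the second.

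Other strong risers without a product were MZ00026953 (2.93, 5.40 and 5.37 on replicates 1 to 3), MZ00037559 (5.03, 3.73 and 4.89) and MZ00042494 (3.73, 4.84 and 4.89), with adjusted p from 0.0327 to 0.0343. MZ00014434, listed as a hypothetical protein similar to one of Arabidopsis, stood at 4.00, 6.91 and 2.31. Its mean of 4.41 ± 2.33 was 21.2-fold (adjusted p = 0.0458), with the widest spread of the 10 highest genes. MZ00041708, an unknown protein similar to one of rice and one of the genes with primers above, stood at 2.97, 4.00 and 6.04 (mean 4.33 ± 1.56, 20.2-fold, adjusted p = 0.0345).

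The lowest mean of a called gene belonged to MZ00041278, at -3.22, -7.09 and -5.83 on replicates 1 to 3. Its mean was -5.38 ± 1.98 (SE 0.77, n = 3, adjusted p = 0.0343), a 41.7-fold lower ratio in cold. Replicate 1 gave the weakest value for this gene, and the same was so for MZ00031714 (-3.37, -3.68 and -7.86) and MZ00013284 (-3.62, -3.66 and -7.06), where replicate 3 was the lowest by a wide margin.

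MZ00024059 was the most even of the strong fallers, at -4.30, -4.53 and -4.98 (mean -4.60 ± 0.34, adjusted p = 0.0327). MZ00030981, MZ00019195, MZ00003434, MZ00031010 and MZ00021642, also without a product, had means from -4.47 to -3.98. Replicate 3 was the lowest array for each of these 5. Among the calls, replicate 3 gave the largest change in 71 of the 99 lower and in 37 of the 92 higher, while replicate 1 gave the smallest change in 95 of all 191. The same shares over all genes tested were not counted. Replicate 3 had the widest ratios over all genes tested, with 10th and 90th percentiles of -2.25 and 2.36. These were -1.76 and 1.85 on replicate 1 and -1.88 and 1.84 on replicate 2.

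**Figure D2:**
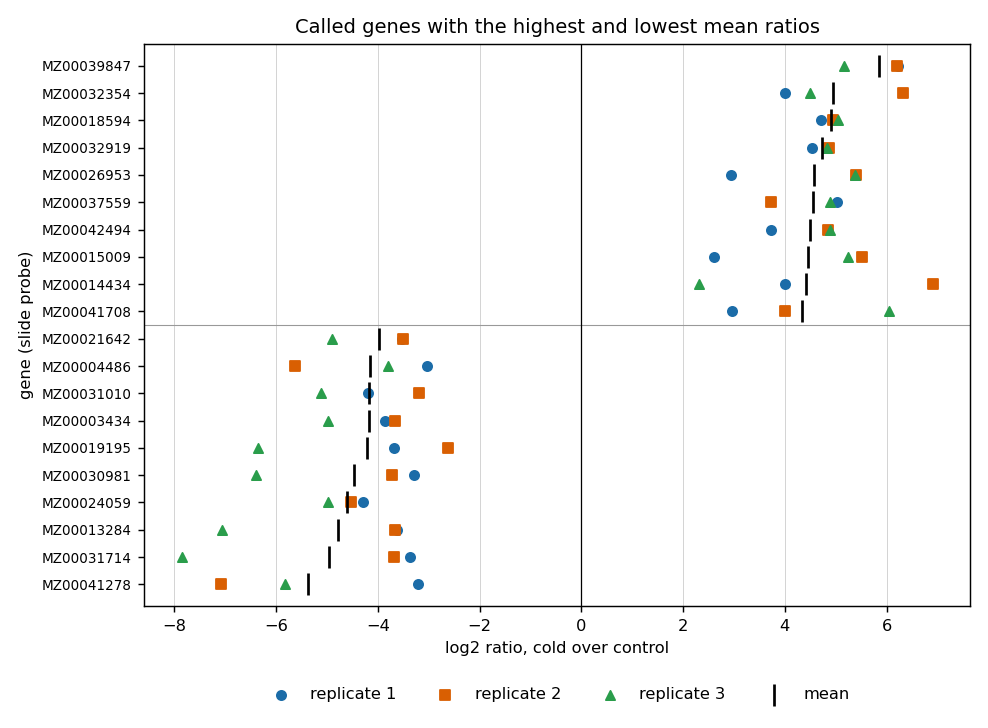
The log2 ratio of cold over control is shown on the x axis for the 10 called genes with the highest and the 10 with the lowest mean in Fergus (y axis), 1 symbol per replicate and a bar at the mean. No array crosses 0 for any of the 20 genes, and among the lower genes the triangle of replicate 3 is often the farthest from 0.

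The genes with a named product are 52 probes whose products were printed in the study's lists of genes differentially expressed in cold in Picker and PR39B29. They were not picked for Fergus, but the lists come from other arrays of the same series. Since members were listed as cold responders, a larger share called than among all genes tested is no result about them. The same holds for each group below that is drawn from these lists. Of the 52, 43 could be tested in Fergus, 12 rose, 8 fell and 23 did not pass, beside 4.06% called among all genes tested. The median of the 43 was 0.98, beside 0.06 for all genes tested. The other 9 lacked a value on at least 1 Fergus array or did not pass the variance filter, and no direction is given for them.

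Of 5 water stress and ABA genes, 3 rose, none fell and 2 did not pass, beside 1.95% called higher and 2.1% lower among all genes tested. The gene for ASR2 (MZ00041306), a small protein that in other plants is induced by ABA and drying, stood at 2.71, 3.49 and 4.20 (mean 3.47 ± 0.75, 11.1-fold, adjusted p = 0.0345). Both probes for r40g3, a protein known from rice whose family responds to ABA and salt, rose as well. MZ00042906 stood at 3.71, 3.18 and 3.36 (mean 3.42 ± 0.27, 10.7-fold, adjusted p = 0.0343). MZ00042908 stood at 3.29, 3.18 and 3.29 (mean 3.25 ± 0.06, 9.54-fold, adjusted p = 0.0345). Both probes carry the same product name and may not measure separate transcripts, so they count as at most one line of evidence.

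The water stress inducible protein MZ00041500 was above 0 on all 3 arrays (2.00, 3.35 and 1.98), with a mean of 2.44 and an adjusted p of 0.0530, just outside the threshold. The drought-inducible protein MZ00023411, similar to one of sugarcane, had no common direction at 1.24, -1.36 and 0.20 (mean 0.03, adjusted p = 0.980). The list therefore held genes with a large rise and 1 gene with no measurable shift.

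Both defence genes fell, beside 2.1% called lower among all genes tested. Pathogenesis-related protein-1 (MZ00004486), a secreted protein widely used as a marker of salicylic acid signalling, stood at -3.04, -5.64 and -3.80 (mean -4.16 ± 1.33, 17.9-fold lower, adjusted p = 0.0345). The chitinase MZ00027910 stood at -3.13, -4.31 and -4.20 (mean -3.88 ± 0.65, 14.7-fold lower, adjusted p = 0.0327). Neither gene came near 0 on a Fergus array. The chitinase was also below 0 on every direct array of the other varieties, where it ranged from -3.47 to -0.52. All but 1 of those values lay above the highest Fergus value of -3.13. For scale, 6.99% of 2546 genes did not overlap between Fergus and Codisco, 6.99% between Fergus and Picker and 30.5% between Fergus and PR39B29. The difference of the chitinase mean from Codisco, Picker and PR39B29 was -1.84, -2.35 and -2.23, with unadjusted p of 0.0276, 0.00731 and 0.00998 in the fit of 12 arrays, none of which passed after adjustment over the 2546 genes of that fit.

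The 3 peroxidases split. The maize peroxidase MZ00026737 rose, at 4.34, 3.03 and 2.06 (mean 3.14 ± 1.14, 8.83-fold, adjusted p = 0.0425). It was the only one of the 3 called, beside 4.06% called among all genes tested. The peroxidase MZ00004711, similar to one of rice, was at -2.87, -2.27 and -6.10 (mean -3.75, adjusted p = 0.0505). P7X (MZ00026299) was at -1.63, -1.41 and -4.21 (mean -2.42, adjusted p = 0.0835). Both lay below 0 on all 3 arrays, and in both replicate 3 was the farthest from 0.

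All 4 proteases lay above 0 on all 3 arrays, beside 29.2% of all genes tested, and 3 rose, beside 1.95%. The metacaspase MZ00032919, of a family of cysteine proteases tied to programmed cell death in plants, stood at 4.53, 4.87 and 4.82 (mean 4.74 ± 0.18, 26.7-fold, adjusted p = 0.0327). The aspartic proteinase MZ00043603 stood at 3.61, 3.50 and 2.99 (mean 3.37 ± 0.33, 10.3-fold, adjusted p = 0.0343). These were even across replicates, unlike most of the genes above.

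Legumains are vacuolar proteases of the C13 family, and 2 probes of that family were measured. The C13 endopeptidase MZ00041334 stood at 2.04, 2.56 and 2.72 (mean 2.44 ± 0.35, 5.42-fold, adjusted p = 0.0460). The legumain-like protease MZ00041333 stood at 1.92, 2.48 and 2.28 (mean 2.23 ± 0.29, adjusted p = 0.0526), so the calls of these 2 near-equal probes fall on either side of the threshold. Their products are related and the probes may share transcripts.

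Of the 4 genes of carbon metabolism and sugar starvation, 3 were tested and all 3 were called, beside 4.06% of all genes tested. Phosphoenolpyruvate carboxykinase (MZ00013532), which feeds carbon from organic acids into sugar synthesis, rose, at 2.51, 3.07 and 2.26 (mean 2.62 ± 0.41, 6.13-fold, adjusted p = 0.0425). The probe for ribulosebisphosphate carboxylase (MZ00005992), the carbon-fixing enzyme of chloroplasts, fell, at -2.59, -2.27 and -2.80 (mean -2.55 ± 0.27, 5.87-fold lower, adjusted p = 0.0425). Probes named rbcL, after a gene of the same enzyme, had values on 2 arrays only, were not tested and lay closer to 0. MZ00034856 gave -0.47 and -0.07 on replicates 1 and 3, and MZ00040486 gave 0.22 and -1.40 on replicates 2 and 3.

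The glucose starvation-induced protein pZSS2 (MZ00037140) fell, at -2.08, -2.36 and -3.29 (mean -2.57 ± 0.63, 5.96-fold lower, adjusted p = 0.0460). A further probe for the same protein, MZ00040560, gave -1.97 and -2.56 on replicates 1 and 2, had no value on replicate 3 and was not tested. The values of both probes thus lay in one range.

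Of 3 root tissue genes, 1 rose, beside 1.95% called higher among all genes tested. RCc3 (MZ00015009), a root-specific protein first described in rice, stood at 2.61, 5.51 and 5.24 (mean 4.45 ± 1.60, 21.9-fold, adjusted p = 0.0345). Root cap protein 2 (MZ00032161) was at -5.00, -0.23 and -4.63 (mean -3.29, adjusted p = 0.0882), with replicate 2 apart from the others. The lipid transfer protein MZ00026029 was at -0.77, -2.90 and -4.07 (mean -2.58, adjusted p = 0.0818). In a whole root, less RNA per cell and fewer cells of a type cannot be told apart in such ratios.

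No gene for membrane transport, phenylpropanoid and isoprenoid synthesis, or regulation was called, beside 4.06% of all genes tested. In membrane transport, 2 of 4 genes were tested. The channel protein ZmNIP2-1 (MZ00016581), of the NOD26-like aquaporin family, was at 2.46, 2.26 and 1.14 (mean 1.95, adjusted p = 0.0808). MtN21 (MZ00029892) was at -3.23, -1.59 and -3.06 (mean -2.63, adjusted p = 0.0505), among the first genes outside the threshold. The urea transporter DUR3 and the syntaxin SYP111 were not tested, with means of -0.23 on 3 arrays and 0.11 on 2.

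Cinnamoyl CoA reductase (MZ00015899), the first enzyme of the lignin branch, was above 0 on all 3 arrays (1.38, 2.41 and 1.03, adjusted p = 0.109). Arogenate dehydrogenase (MZ00029584), of tyrosine synthesis, had mixed signs at -0.31, 2.55 and 0.69 (adjusted p = 0.344). The O-methyltransferase ZRP4 (2.06 and 1.83) and farnesyl pyrophosphate synthetase (0.53 and -2.68) had values on 2 arrays only.

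Among 8 genes of regulation, RNA and protein, 6 were tested. The NAC1 transcription factor (MZ00022590) was at 1.99, 2.39 and 1.53 (mean 1.97, adjusted p = 0.0680). The small heat shock protein hsp22 (MZ00029223), a chaperone, was at -2.61, -3.07 and -0.64 (mean -2.11, adjusted p = 0.0925). Replicate 3 was the weakest for hsp22, in contrast to most falling genes.

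PGPD14 (MZ00031569) was at 2.96, 0.70 and 4.85 (adjusted p = 0.0847), the small nuclear ribonucleoprotein F (MZ00014087) at 0.97, 0.37 and 1.92 (adjusted p = 0.222), the RelA homologue (MZ00031971) at 0.91, -0.02 and 1.33 (adjusted p = 0.367) and the BRAP2-like protein (MZ00049724) at -1.03, -0.21 and -1.43 (adjusted p = 0.284). For MZ00003507, an RNA binding protein, only replicate 3 gave a value (0.18). The 40S ribosomal protein MZ00017067 had one of -1.17 on replicate 2 alone. Neither of the last 2 can be compared between replicates.

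Of 13 products of unknown function, 11 were tested, 3 rose and 4 fell, beside 1.95% called higher and 2.1% lower among all genes tested. Besides MZ00014434 and MZ00041708, MZ00017520 rose (3.48, 2.44 and 3.12, mean 3.02, adjusted p = 0.0345). The fallers were MZ00018470 (mean -3.94, adjusted p = 0.0327), MZ00041588 (mean -3.76, adjusted p = 0.0382), MZ00036678 (mean -3.74, adjusted p = 0.0343) and MZ00040530 (mean -3.33, adjusted p = 0.0345). All 4 were lowest on replicate 3, between -5.42 and -4.38. The uncalled members had means from 0.34 (MZ00043117, of mixed sign) to 2.30 (MZ00030597, adjusted p = 0.0580), with MZ00022876 at 1.92 and MZ00032181 at 0.84 between them. MZ00012962 (-0.71 and -3.63 on replicates 2 and 3) and MZ00013139 (-2.87 on replicate 2) were not tested.

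**Figure D3:**
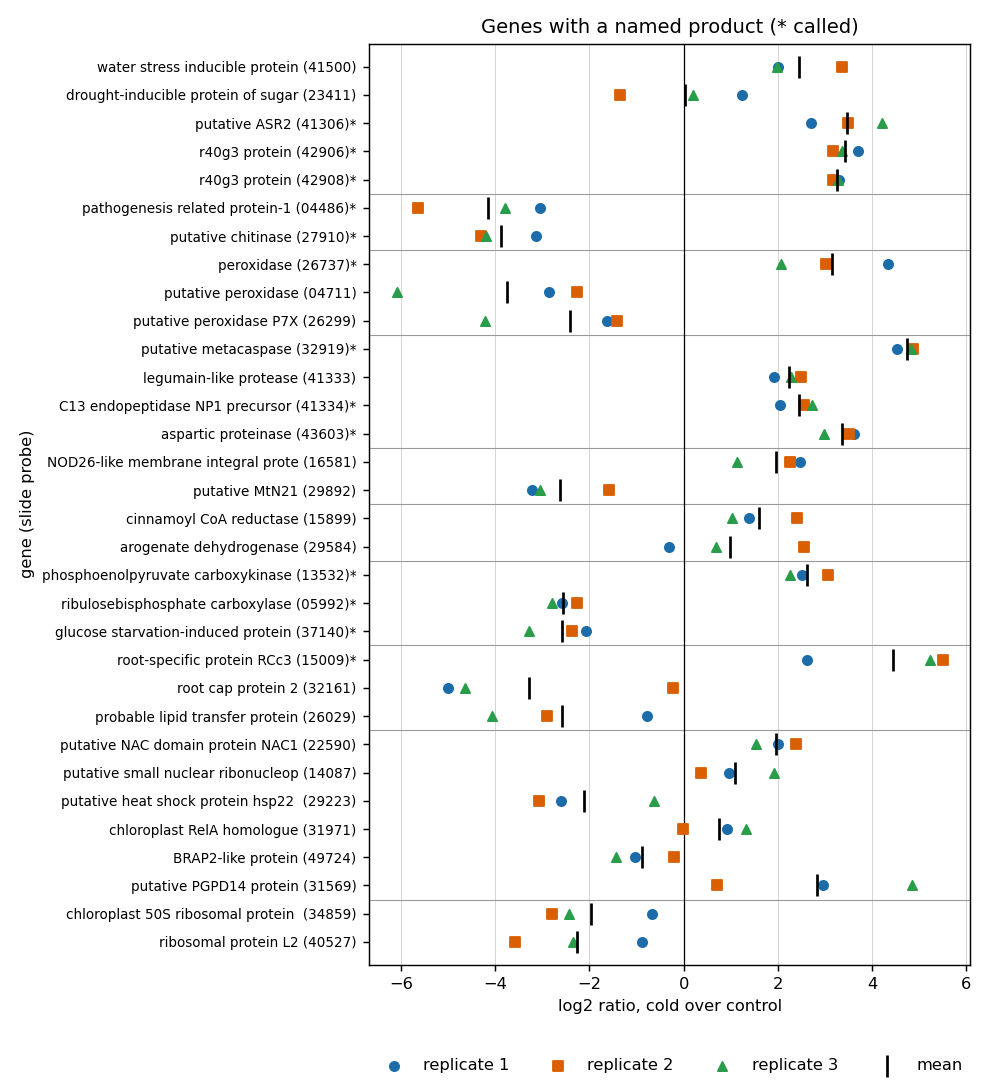
Each row of the y axis is a gene with a named product that could be tested in Fergus, grouped by role, with the last 5 digits of its probe and a star where it was called. The x axis is the log2 ratio of cold over control, with 1 symbol per replicate and a bar at the mean: proteases and most water stress genes lie to the right on all 3 arrays, and both defence genes to the left.

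Roots hold plastids without a photosynthetic apparatus, and the slide carried 67 probes named after genes of the plastid genome, of which 15 could be tested and 1 was called, a share near the 4.06% among all genes tested. psbA (MZ00034843), which encodes the D1 core protein of photosystem II, fell, at -3.55, -2.44 and -3.27 (mean -3.09 ± 0.58, 8.51-fold lower, adjusted p = 0.0345). Its replicates did not come near 0. psbM was measured by 2 probes with means of -1.71 and -1.49, while psbI (mean 0.70) and psbK (mean 1.42) were higher, both through replicate 3 (2.80 and 3.53). A further probe of each had a value on replicate 3 only and was not tested. It stood at 0.0075 for psbI (MZ00040800) and at 0.85 for psbK (MZ00040801), below the tested probes on that array.

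Of the 10 plastid translation genes with a value on all 3 arrays, which encode ribosomal proteins, 7 passed the variance filter and were tested. These 7 lay below 0 on all 3 arrays, as did 22.3% of all genes tested, and none was called (adjusted p from 0.0835 to 0.512). The 3 that the filter removed did not share that direction. rps15 (0.35, 0.47 and 1.72) and rps7 (0.77, 0.30 and 1.16) were above 0 on all 3 arrays, and rps3 (-1.49, -0.92 and 0.17) was mixed. A filter on variance favours large ratios, so the common sign of the 7 says nothing of the group as a whole. The tested genes ran from rpl2 at -2.27 (-0.88, -3.58 and -2.34 on replicates 1 to 3) to rpl36 at -0.51 (-0.91, -0.31 and -0.30). Replicate 2 was the lowest for rpl2, rpl16, rpl14, rpl22 and rps19, and all 7 tested genes belong to one gene cluster of plastid genomes, so they are not independent. Of the plastid RNA polymerase, rpoA (mean -1.11) and rpoC2 (mean -0.40) had mixed signs, and ndhJ, of the NADH dehydrogenase, had a mean of -1.34.

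**Figure D4:**
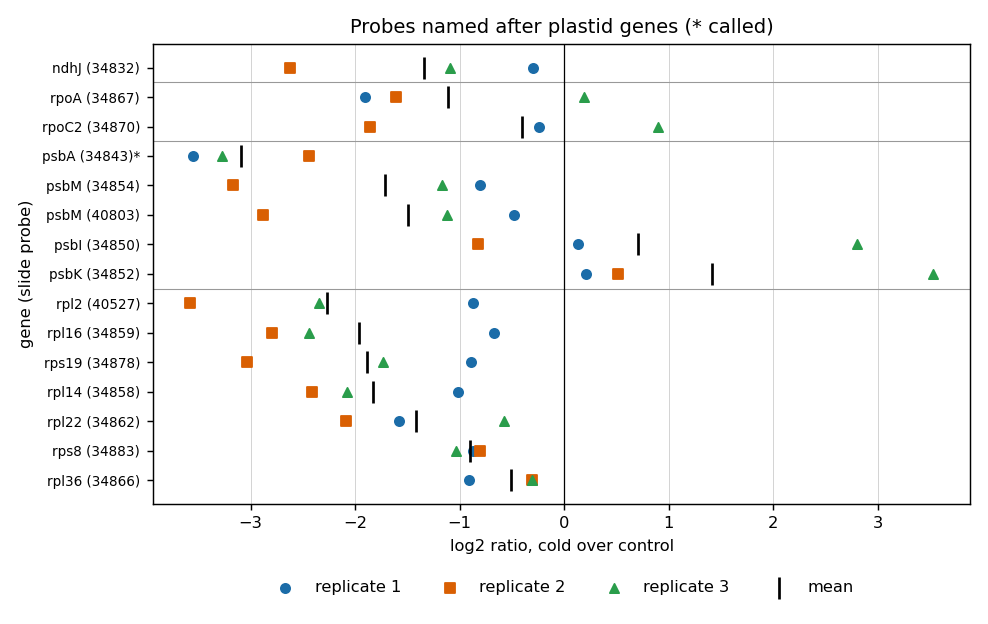
The 15 tested probes named after plastid genes are listed on the y axis by group (NADH dehydrogenase, RNA polymerase, photosynthesis, translation), with the log2 ratio of cold over control in Fergus on the x axis, 1 symbol per replicate and a bar at the mean. The 7 translation genes shown lie left of 0 on every array (rps15, rps7 and rps3 did not pass the variance filter and are not shown), and psbA, with a star, is the only one called.

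The difference between the response of Fergus and that of each other variety was tested in 1 fit of the 12 direct arrays, on the 2546 genes with a value on all of them. No gene passed the threshold for Fergus minus Codisco, Picker or PR39B29 (0% each), nor for Fergus minus the mean of the other 3. At an unadjusted p under 0.05 there were 125 genes against Codisco (4.91%), 51 against Picker (2%), 450 against PR39B29 (17.7%) and 160 against the mean of all 3 (6.28%). The smallest adjusted p was 0.885, 0.998, 0.208 and 0.774 in that order. The median SE of a difference between 2 varieties was 0.84 on the log2 scale, so that only differences well beyond that size could be detected. With array weights the comparison with PR39B29 gave 832 calls (278 higher and 554 lower in Fergus). That estimate of the weights stopped before it converged and set them between 6.01e-05 for Codisco replicate 3 and 21.3 for PR39B29 replicate 2, so the count rests mainly on a few arrays.

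The 191 Fergus calls were then followed in the other varieties, whose arrays share no RNA with the Fergus direct arrays but took part in the variance filter. In Codisco, 71 of the 72 risers with 3 values had a mean above 0 (45.9% of all genes tested in Fergus did) and all 93 fallers a mean below 0 (54.1%). In Picker the counts were 75 of 75 (46.2%) and 89 of 90 (53.8%). In PR39B29 they were 51 of 52 (59.5%) for the risers and 59 of 81 (40.5%) for the fallers. No test was attached to these counts.

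The sizes differed more than the signs. Among the risers, the median log2 ratio was 2.76 in Codisco, 2.21 in Picker and 1.68 in PR39B29. Among the fallers it was -2.48 in Codisco, -1.82 in Picker and -0.51 in PR39B29. The calls were selected for being large in Fergus, so these medians are compared among the 3 other varieties only. The variance filter also drew on the arrays of those varieties and favours genes with large ratios there. Arrays with wide ratios weigh more in it, so the order of the medians is a description. Replicate 1 of Codisco did not rank genes like its partners (rho = 0.02 and 0.03), and on it the medians were 1.06 and -0.89, against 3.10 to 3.99 and -3.64 to -2.76 on the other 2 Codisco arrays. Those 2 arrays also had wide ratios in general, with an SD over all genes of 1.84 and 2.45 beside 0.59 to 1.59 in PR39B29, 190 and 770 ratios beyond 10, and a value on 25.5% and 99.8% of blank spots. Picker replicate 1 was wide as well, with an SD of 2.60, 533 ratios beyond 10 and a value on 11.4% of blank spots. Its medians were 1.76 and -0.80, beside 1.93 to 2.86 and -2.92 to -1.60 on Picker replicates 2 and 3. The part of such spread in the Codisco and Picker medians was not tested. Values on PR39B29 replicate 2 nearly equal those of a linking array, replicate 2 of Picker cold over PR39B29 control (Pearson's r = 0.987 as deposited). The sign of that r is opposite to most of the Fergus pairs above. Which RNA the array holds was not tested, so every PR39B29 value that includes it is given with this limit. Without Codisco replicate 1 the test against Codisco still gave no call (smallest adjusted p = 0.0838), and without PR39B29 replicate 2 the test against PR39B29 gave none either (0.481).

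**Figure D5:**
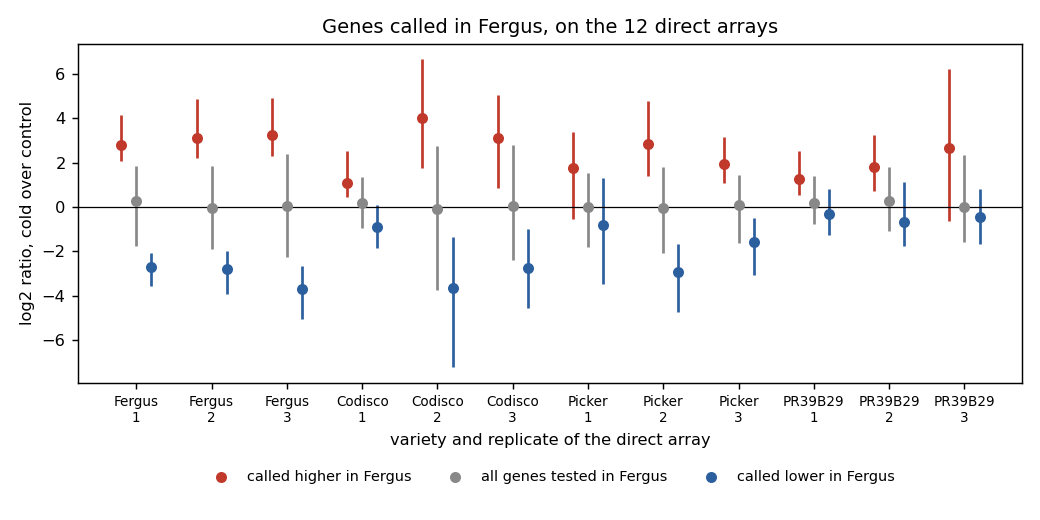
For each of the 12 direct arrays (x axis, variety and replicate) the points give the median log2 ratio of cold over control (y axis) of the genes called higher in Fergus, called lower in Fergus, and of all genes tested in Fergus, and the lines run from the 10th to the 90th percentile of genes. The called genes separate from the rest on the Fergus arrays, where they were chosen, and the genes called lower lie closest to 0 in PR39B29.

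The genes with the smallest p for a difference are given as a description, since none passed after adjustment. In many of them Fergus stood apart from 1 variety and overlapped another. MZ00044436 was at 2.59, 3.35 and 1.69 in Fergus and between -0.54 and 0.22 in Codisco (difference 2.67, unadjusted p = 0.000893), but Picker (1.63 to 2.36) overlapped Fergus. MZ00028493 was at -1.67, -1.89 and -3.39 in Fergus and at 1.35, 2.49 and 0.31 in PR39B29 (difference -3.70, unadjusted p = 0.000743). Codisco (-0.67 to 1.95) and Picker (-1.21 to 0.33) did not overlap Fergus for this gene. MZ00016490 was at -2.14, -1.49 and -2.46 in Fergus and at 0.95, 1.32 and 1.42 in PR39B29 (difference -3.26, unadjusted p = 0.000261), the smallest p of that comparison. For MZ00016490, Codisco (-2.39 to -0.44) and Picker (-1.90 to -0.64) both overlapped Fergus. In the last 2 genes Fergus and PR39B29 lay on either side of 0, as they did in 7.78% of the 2546 genes, beside 0.786% for Codisco and 0.393% for Picker.

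MZ00021836, which rose in Fergus (2.84, 2.91 and 4.40, adjusted p = 0.0345), lay between -0.39 and 0.20 in PR39B29 and between 0.34 and 1.05 in Picker. MZ00044446 rose too (3.96, 5.18 and 1.89, adjusted p = 0.0430), against -0.58 to 1.20 in Picker. MZ00013381 rose (2.93, 2.43 and 4.98, adjusted p = 0.0415), against -0.49 to 1.28 in Picker. Codisco overlapped Fergus in each of these genes, at 0.47 to 4.12, 1.41 to 3.15 and 0.92 to 3.96 in that order. PR39B29 (0.06 to 2.29) also overlapped Fergus for MZ00044446. These genes were chosen for such differences, so their separation is no result, and among all 2546 genes 6.99% did not overlap between Fergus and Picker, 6.99% between Fergus and Codisco and 30.5% between Fergus and PR39B29. MZ00042523 (2.00, 0.54 and 1.42 in Fergus, -2.23 to -1.01 in Picker), MZ00030169 (-1.37, -0.47 and -1.69 in Fergus, 0.50 to 1.84 in Codisco) and MZ00014841 (-2.64, -1.95 and -4.03 in Fergus, 0.04 to 2.24 in PR39B29) completed the set. For MZ00042523, Codisco (-0.86 to 1.33) and PR39B29 (0.43 to 1.68) overlapped Fergus, as Codisco (-2.86 to 0.03) did for MZ00014841.

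The maize peroxidase MZ00026737, called in Fergus, was at 3.71, -2.91 and -0.97 on the Codisco arrays, so the 2 less tolerant varieties overlapped only through Codisco replicate 1. Its difference between them was 3.20 (unadjusted p = 0.0319, not passing after adjustment). In PR39B29 it was at 3.07, 3.85 and 2.73, within the Fergus range. The ribulosebisphosphate carboxylase probe MZ00005992 ran the other way, close to Picker (difference -0.16, SE 0.88) and lower than PR39B29, where it was at -0.92, 1.00 and 1.79 (difference -3.17, unadjusted p = 0.00297).

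Fergus RNA was also hybridised on 6 linking arrays, where the variety changes together with the treatment, and whether these held the same extracts as the direct arrays is not stated. On Fergus cold over Picker control, the risers had medians of 1.51, 3.17 and 2.50 on replicates 1 to 3 and the fallers -0.76, -2.80 and -2.95. On Codisco cold over Fergus control the risers had medians of 3.84, -0.15 and 1.01 and the fallers -3.77, 0.17 and -0.81. Replicate 2 of the latter went against the rest: 39 of 91 risers lay above 0 there, against 87 of 88 on replicate 1 and 79 of 85 on replicate 3.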

How the data were processed

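Primary root RNA of 4 varieties was hybridised on 46128-spot slides. The deposited values are log2 ratios (M) of the 2 dyes, one column per array. Per the study's methods, the authors corrected the background by the minimum method, normalised within arrays by print-tip loess and between arrays by scaling with limma, and removed bad spots. The array files carry no counts and the number of arrays, 3, limits the precision. The 96 columns of single slides were not used here. Positions on the slide named each row, IDs starting MZ were kept (43536 spots) and spots of one ID (12 genes) were averaged. Of 1972 blank spots, 0.456% to 3.60% had a value on the Fergus arrays, but 25.5% and 99.8% on Codisco replicates 2 and 3.

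Genes were ranked by variance over 24 arrays and the upper 40% kept (16945 of 42364 with at least 2 values), and 4706 had a value on all 3 Fergus arrays. They were tested with limma 3.58.1 (R 4.3.3, package data.table, version 1.17.8), as a one-sample moderated test of the mean ratio against 0, two-sided, with Benjamini-Hochberg adjustment over the genes tested and a threshold of 0.05. Varieties were compared by contrasts in one model of the 12 direct arrays, with variety as its term. Both fits were run on simulated data with independent normal noise for each gene and no missing values. Those data held no dye or array effects, so the run says nothing of such effects here. The series text says that seedlings were grown and harvested independently for each replicate.

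Replicate numbers were not used to pair arrays of different varieties, because 4 of 9 same-numbered pairs with Fergus correlated at 0.1 or less. No array nearly repeated a Fergus array, the largest absolute Pearson correlation being 0.67 over all genes. The arrays, gene lists and rules were chosen with earlier results of these data known. Genes named are the 10 called genes with the highest and the 10 with the lowest mean, all 52 products printed by the study, called probes with plastid names, and the 3 genes with the smallest p of each difference between varieties. No probe name matched the reference genes of the study, so none is reported. Probe names from the slide were used as given, and the sources used here pair none of them with chromosome positions.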

Additional observations from a re-analysis of the deposited data

Results flagged for a closer look

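For 6 of the named genes, every Fergus array lay on one side of 0 and every array of another variety on the other. Over all 2546 genes of the fit of 12 arrays, 7.78% showed this against PR39B29, 0.786% against Codisco and 0.393% against Picker. The share for PR39B29 includes its replicate 2, which nearly repeats a linking array. All 6 were among the genes named for a small p of a difference or for a low mean, so the count of 6 is a description, and their differences in mean log2 ratio were tested in the fit of 12 arrays, where none passed after adjustment. Against PR39B29, the difference was -5.34 for MZ00013284, -3.70 for MZ00028493, -2.56 for MZ00030169, -3.26 for MZ00016490 and -3.68 for MZ00014841 (adjusted p = 0.208 for each). Against Codisco it was -2.56 for MZ00030169 (adjusted p = 0.885), and against Picker it was 2.74 for MZ00042523 (adjusted p = 0.998). MZ00013284 and MZ00014841 were called lower in Fergus itself, with means of -4.78 and -2.87 beside 0.56 and 0.81 in PR39B29. In Codisco and Picker the means were also below 0, at -4.36 and -2.52 for MZ00013284 and at -1.51 and -1.49 for MZ00014841. Groups of 3 arrays are too small for a search for single deviating arrays.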

How the results depend on the processing

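The 191 calls changed in number with the processing, and all that had a value kept their direction. Most alternatives average the same 3 Fergus arrays, and all 191 calls had the same sign on all 3. Such alternatives, and leaving out 1 replicate, could therefore not turn a call. The loop of 24 arrays also draws on the other arrays, and there all 161 calls with a value kept their direction. There were 423 calls with no variance filter, 395 with the filter taken over the 21 arrays not tested, 347 when all 12 direct arrays were fitted together, 307 with arrays centred and scaled, 364 with values beyond 10 left out, 308 with robust variance estimation and 109 in the loop of 24 arrays with a dye term, where a gene needed values on 20 arrays. There were 0 with 1 missing array allowed (1878 genes at an unadjusted p under 0.05) and 0 with the adjustment over the 4 varieties together, an alternative chosen after seeing the data (1354 genes). Leaving out 1 replicate gave 0 to 159 calls. The dye term in the loop followed title order. Since the labels give cold as Cy5 on every array, that term cannot separate dye from treatment as labelled. With replicate number as a block in the fit of 12 arrays, 575 genes were called in Fergus and none in a difference between varieties. Same-numbered arrays of Fergus and another variety correlated from -0.06 to 0.49 (5 of 9 over 0.1, median 0.22, beside -0.09 for unlike numbers). The 3 pairs of replicate 1 lay between 0.33 and 0.49, and not every pair passed 0.1, so a shared effect of the number was not established for replicates 2 and 3. The differences between varieties gave 0 calls under the alternatives except array weights, with 832 for Fergus minus PR39B29, and leaving out 1 replicate gave 0 each time. Direction turned only for uncalled genes near 0. MZ00023411 was at -0.0060 in the loop with or without the dye term, at -0.021 with arrays scaled, and from -0.58 to 0.72 when 1 replicate was left out. MZ00043117 was at -0.0070 in both loops and from -0.32 to 1.08 without 1 replicate, and MZ00049724 was at 0.036 and 0.38 in the loop without and with the dye term. The causes were not tested. Alternatives without Codisco replicate 1 or PR39B29 replicate 2 were chosen after seeing the data. With 3 arrays and no signal levels used, changes under a log2 ratio of 2.33 were not called at this number of arrays.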

Other observations

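The 191 genes called in Fergus carried much the same kinds of names as the genes tested: 74.3% were named after a sequence cluster and 19.4% after a single sequence accession, beside 74.1% and 18.4% of the 4706 genes. The genes called higher had values on a median of 19 of the 21 other arrays and those called lower on 20, as for the genes not called. The last call before the threshold was MZ00018917 (mean 2.43, adjusted p = 0.0490) and the first gene past it MZ00041271 (mean -2.63, adjusted p = 0.0505), both named because of their place in that order.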
